A study of Mus musculus with 10 samples.

Results

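Cholesterol handling in the light-damaged retina was described through 8 genes. They were *Hmgcs1*, *Idi1* and *Sqle*, which encode enzymes of cholesterol synthesis, *Srebf2* and *Insig1*, which control that synthesis, *Abca1* and *Abcg1*, which export cholesterol from cells, and *Ch25h*, which turns cholesterol into an oxysterol. They were chosen by name from the 54532 genes of the deposited table, and all 8 were among the 24508 genes tested. *Ch25h* met the filter on low values through its LD (light damage) retinas alone. After 1 day of intense light, *Abcg1* fell 2.22-fold and *Ch25h* rose from a mean of 0.377 to 4.24 FPKM (fragments per kilobase of gene, scaled to library size). The other 6 genes did not pass the test, and the fitted change of each was within 20% of the NL level.

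The samples were 10 neural retinas of BALB/c mice aged 2 months, an albino strain whose eyes have no melanin to absorb stray light. The labels name no allele or transgene, and mice of both groups spent 12 hr in the dark first. Of the retinas, 5 came from mice then held at 200 lux (normal light, NL) and 5 from mice held at 15000 lux (light damage, LD), each for 1 day. The labels number the retinas NL-1, NL-4, NL-5, NL-7 and NL-8, and LD-1, LD-4, LD-6, LD-7 and LD-8, and values below are given in this order.

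Animal cells build cholesterol from acetyl-CoA through the mevalonate pathway. When sterols in the endoplasmic reticulum run low, the membrane-bound transcription factor SREBP2, the product of *Srebf2*, is released and switches on the enzymes of this pathway and genes of lipoprotein uptake, and INSIG proteins hold it back when sterols are plentiful. Excess cholesterol is sensed as oxysterols by the liver X receptors (LXRs), whose targets include the exporters ABCA1 and ABCG1. Cholesterol 25-hydroxylase, the product of *Ch25h*, makes an oxysterol that both restrains SREBP2 and activates LXRs, and the gene is known to be induced in macrophages by interferons and by microbial products. In the retina cholesterol is made locally as well as taken up from the blood, and the outer segments of rods are rebuilt daily from lipid and protein.

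LD was tested against NL with limma on log2(FPKM + 0.1), and "rose" and "fell" stand for an adjusted p under 0.01 over all 24508 genes. Levels are given as mean ± SD over 5 retinas. At that threshold 2280 genes (9.3%) had higher and 1898 genes (7.74%) had lower levels after LD. With a fold change above 2 as well, 1013 genes (4.13%) were called higher and 582 genes (2.37%) lower. The ranges of the 5 NL and the 5 LD retinas did not overlap in 5483 genes (22.4%). Against these shares, 1 of the 8 genes rose, 1 fell, both by more than 2-fold, and the ranges did not overlap in 3 (*Idi1*, *Abcg1* and *Ch25h*). The gene that rose, *Ch25h*, met the filter on low values through its LD retinas alone. With so few genes, nothing about the set is read from these counts.

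Depth was 18965090 to 26832535 reads per retina. The markers of rods, Müller glia and inner retinal neurons were expressed, as were those of microglia, pigment epithelium and endothelium, and no gene of these lists was at 0 in all retinas. All 10 rod markers fell, their summed level going from 10023 to 12211 FPKM under NL to 1565 to 3061 FPKM after LD. In bulk tissue, fewer cells of a type and less RNA per cell cannot be told apart. In their reads, 3 pairs of retinas (NL-5 and NL-7, LD-1 and LD-7, LD-4 and LD-6) were closer to each other, with a chi-square per gene of 2.65 to 3.65, than the other 17 pairs of the same group, with 12.2 to 43.4. Nothing in the labels ties retinas to mice, so p-values measure the spread between these samples, and the results below are also given with these pairs averaged (4 NL and 3 LD samples) where that ends a call.

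The promoters of 6 of the 8 genes were looked up in RefSeq (GRCm38.p6), as the 300 bases around the start, and searched on both strands for 3 motifs. These were the sterol regulatory element bound by SREBP, written TCACNCCAC, the box of its partner NF-Y, written CCAAT, and the core of the interferon-stimulated response element, written GAAANNGAA. Of all 32851 mouse promoters of this length, 1.24% held the first, 37.4% the second and 8.56% the third. The promoters of *Sqle* and *Abcg1* had no entry and were not searched. Of the 6 that were, only that of *Hmgcs1* held the sterol element, 137 bases before the start. It also held NF-Y boxes 237, 176 and 45 bases before the start and another just after it. NF-Y boxes were also found 216 bases before the start of *Insig1*, 135 bases before that of *Srebf2*, and 45 and 14 bases before that of *Idi1*, while the promoters of *Abca1* and *Ch25h* held none of the 3 motifs, which says only that these letters are not in these windows. The 250 bases before the start are shown for *Hmgcs1* (chr13:119690101-119690350, plus strand), which did not pass the test, and for *Ch25h* (chr19:34475149-34475398, minus strand), which rose, each from 5′ to 3′ on the strand of the gene, with capitals for matches to the sterol element and to the NF-Y box (ATTGG where it lies on the other strand).
Hmgcs1: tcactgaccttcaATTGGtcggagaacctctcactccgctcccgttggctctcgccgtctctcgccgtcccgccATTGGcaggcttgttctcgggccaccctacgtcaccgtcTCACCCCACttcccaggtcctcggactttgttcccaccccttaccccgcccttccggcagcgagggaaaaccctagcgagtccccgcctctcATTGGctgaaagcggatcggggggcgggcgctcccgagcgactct
Ch25h: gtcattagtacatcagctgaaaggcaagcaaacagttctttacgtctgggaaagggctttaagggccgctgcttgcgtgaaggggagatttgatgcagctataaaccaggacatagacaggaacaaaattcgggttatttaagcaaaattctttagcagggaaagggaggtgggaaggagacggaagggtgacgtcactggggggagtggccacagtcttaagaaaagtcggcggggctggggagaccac

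None of the 3 synthesis enzymes passed the test. *Hmgcs1* (ENSMUSG00000093930, GRCm38 chr13:119690379-119708260, plus strand, 11 exons) encodes HMG-CoA synthase, an early enzyme of the mevalonate pathway. It was at 22.3, 22.1, 23.0, 21.3 and 22.3 FPKM in the NL retinas and at 22.1, 19.4, 20.8, 21.5 and 19.4 FPKM in the LD retinas. The LD values spread downward from the NL range and overlapped it, with means of 22.2 ± 0.577 and 20.6 ± 1.21 FPKM (SD, n = 5 each). The log2 fold change was -0.11 (standard error, SE, 0.05, adjusted p = 0.114), and the 95% interval of the ratio ran from 0.867 to 0.997. An antisense transcript that overlaps its exons, *Gm48342*, was at only 0.289 and 0.344 FPKM.

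*Idi1* (ENSMUSG00000058258, chr13:8885501-8892451, plus strand, 6 exons) encodes isopentenyl diphosphate isomerase, which supplies the building blocks of squalene. Its values were 5.99, 5.74, 6.39, 5.98 and 6.38 FPKM under NL and 5.55, 4.92, 4.85, 5.25 and 5.28 FPKM after LD. Every LD retina lay below every NL retina, although the nearest, LD-1 and NL-4, were only a little apart. The mean went from 6.10 ± 0.285 to 5.17 ± 0.285 FPKM (SD, n = 5 each), and the log2 fold change was -0.23 (SE 0.06). Its adjusted p of 0.010001 stood just outside the threshold. The two-sided exact permutation test gave an unadjusted p = 0.00794, the smallest that 5 retinas against 5 allow. Separate ranges give this value, and ranges were separate in 22.4% of all genes tested. Of the 10 fits that left out a retina, only that without LD-1 passed (adjusted p = 0.00787). The other 9 missed the threshold, with adjusted p-values of up to 0.0295. Averaging the 3 closest pairs left a log2 fold change of -0.22 (adjusted p = 0.0679). Without the factor that the authors applied to each retina the log2 fold change was -0.10 (adjusted p = 0.164). A transcript on the other strand, *Gm48574*, overlaps its exons and was at 0.0292 and 0.00901 FPKM.

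*Sqle* (ENSMUSG00000022351, chr15:59315077-59331192, plus strand, 11 exons) encodes squalene epoxidase, the first oxygen-using step after squalene. It was at 10.4, 11.3, 10.6, 10.2 and 10.9 FPKM under NL and at 12.3, 10.6, 11.0, 12.6 and 10.8 FPKM after LD. Only LD-1 and LD-7, a closest pair, exceeded the NL range. The log2 fold change of 0.10 (SE 0.06, adjusted p = 0.270) was thus not larger than the spread between retinas, and the interval of the ratio was 0.976 to 1.17.

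**Figure D1:**
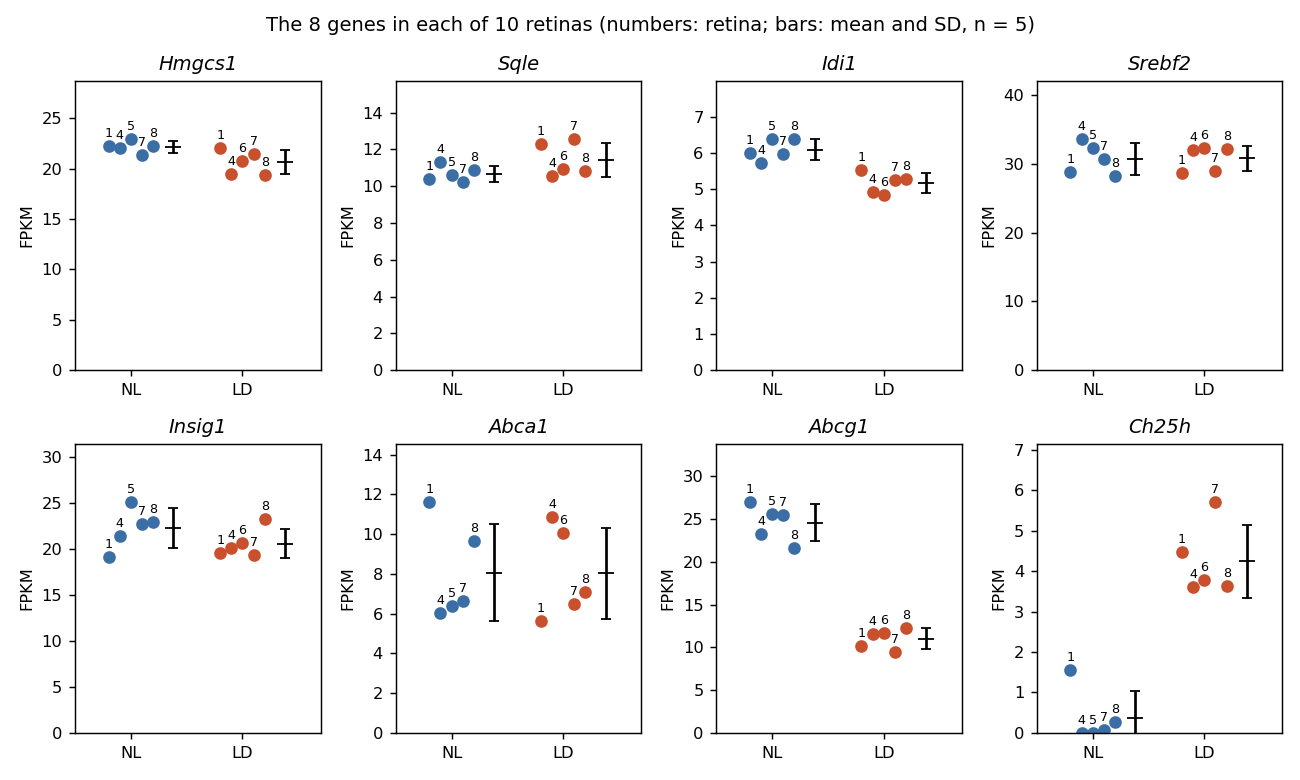
Level of each of the 8 genes in FPKM (vertical axis, from 0 on each panel's own scale) in the 5 NL retinas (blue) and the 5 LD retinas (red); each point is 1 retina with its number, and the bars give the mean and SD. The NL and LD points are apart for *Abcg1* (21.6 to 27.1 against 9.42 to 12.3 FPKM) and *Ch25h* (at most 1.56 against at least 3.62 FPKM), narrowly apart for *Idi1*, and mixed for the other 5 genes. The lower end of the NL bar for *Ch25h* lies below 0 and is not drawn.

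The control genes of the pathway did not differ beyond the spread between retinas. *Srebf2* (ENSMUSG00000022463, chr15:82147181-82205379, plus strand, 21 exons) was at 28.8, 33.6, 32.2, 30.7 and 28.1 FPKM under NL and at 28.7, 32.0, 32.3, 28.9 and 32.2 FPKM after LD. The 2 ranges covered each other almost entirely. Its log2 fold change was 0.01 (SE 0.06, adjusted p = 0.949), with a ratio of 0.916 to 1.10 at 95%. The processing of the SREBP2 protein, by which the pathway is switched, was not measured.

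*Insig1* (ENSMUSG00000045294, chr5:28071363-28078662, plus strand, 5 exons) is itself a target of SREBP2 and encodes a protein that retains SREBP2 in the endoplasmic reticulum. Its values were 19.1, 21.4, 25.1, 22.7 and 22.9 FPKM under NL and 19.6, 20.1, 20.6, 19.3 and 23.3 FPKM after LD. NL-1 was the lowest NL retina and LD-8 the highest LD retina, so that the ranges overlapped widely. The log2 fold change was -0.11 (SE 0.08, adjusted p = 0.325), with a ratio of 0.825 to 1.04 at 95%.

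Of 19 enzymes of the pathway, 2 rose and 17 (89.5%) did not pass, a count near that over all genes tested, of which 9.3% rose and 83.0% did not pass. None of the 19 changed more than 2-fold. For 16 of the 19 (84.2%) the fitted change was within 20%, against 51.4% of all genes tested, and the median log2 fold change was -0.09, against -0.01 over all genes. *Pmvk*, which encodes phosphomevalonate kinase, rose from 21.1 ± 0.660 to 35.7 ± 5.75 FPKM (log2 fold change 0.74, adjusted p = 2.26e-04). *Ebp*, which encodes a sterol isomerase of the late steps, rose from 6.55 ± 0.294 to 10.7 ± 1.09 FPKM (log2 fold change 0.70, adjusted p = 3.68e-05). *Cyp51*, the lanosterol demethylase, did not pass, with a log2 fold change of -0.10 (adjusted p = 0.370).

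*Cyp51* shares exonic sequence with *Akap9*, and *Fdft1* with *Ctsb*, on the opposite strand, and whether counting used the strand is not given in the sources used here. *Fdps* was at only 0.598 ± 0.118 and 0.559 ± 0.123 FPKM, and since the handling of reads shared with its pseudogenes is also not given, this level is uncertain.

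**Figure D2:**
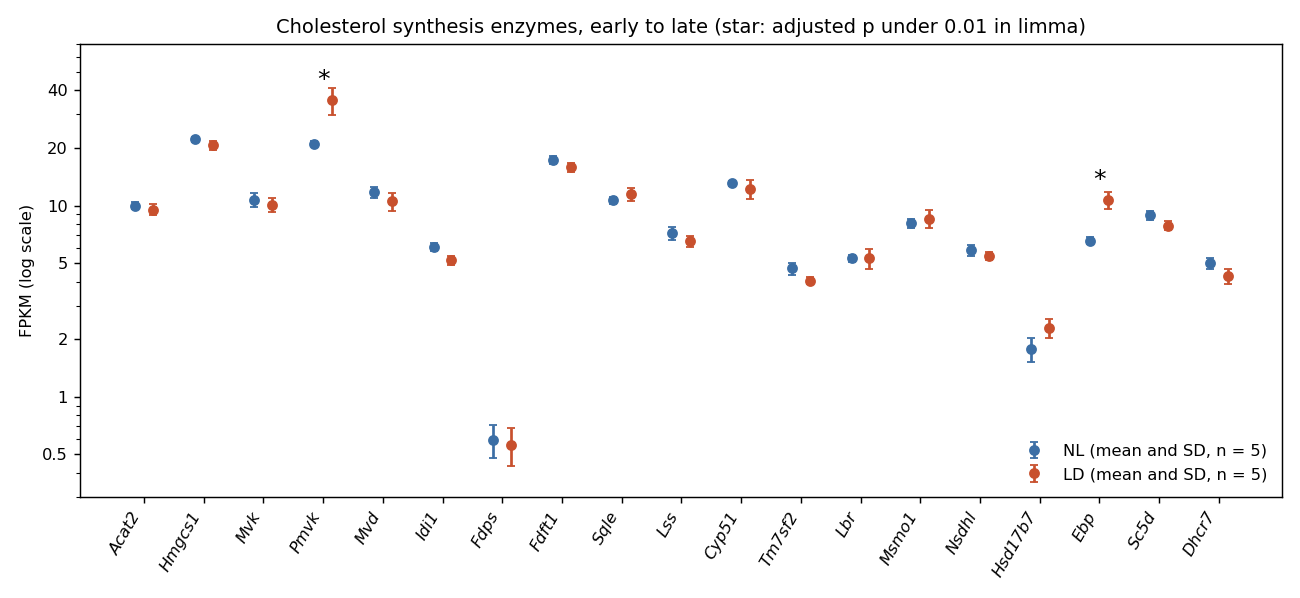
Mean FPKM with SD (n = 5 retinas per group, log scale on the vertical axis) of 19 cholesterol synthesis enzymes, ordered from early to late steps, for NL (blue) and LD (red); a star marks an adjusted p under 0.01 in limma. The 2 groups lie close together along the pathway, apart from *Pmvk* and *Ebp*, which rose to 35.7 and 10.7 FPKM.

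Among 16 genes of SREBP control, uptake of lipoproteins and release of cholesterol from lysosomes, 1 rose, 2 fell and 13 did not pass, again near the shares over all genes (9.3% rose, 7.74% fell and 83.0% did not pass), with a median log2 fold change of 0.01. *Mylip*, an LXR target that limits the uptake of lipoproteins, fell from 19.2 ± 1.07 to 12.5 ± 0.972 FPKM (log2 fold change -0.61, adjusted p = 3.58e-05). *Srebf1*, the gene of the related factor SREBP1, which drives fatty acid synthesis and is another LXR target, fell from between 19.3 and 22.1 FPKM to between 13.5 and 16.9 FPKM (log2 fold change -0.51, adjusted p = 3.34e-04), and its exons overlap *Rai1* on the other strand. *Lipa*, which encodes the lysosomal acid lipase that frees cholesterol from its esters, rose from 5.43 ± 0.332 to 7.98 ± 0.817 FPKM (log2 fold change 0.54, adjusted p = 4.06e-04).

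Of the 2 exporters, *Abcg1* fell and *Abca1* did not pass the test. *Abcg1* (ENSMUSG00000024030, chr17:31057698-31115777, plus strand, 15 exons) encodes a transporter that loads cholesterol onto lipoprotein particles. It was at 27.1, 23.3, 25.6, 25.4 and 21.6 FPKM under NL and at 10.1, 11.5, 11.7, 9.42 and 12.3 FPKM after LD. Each LD retina was far below the lowest NL retina, and both groups were tight. The means were 24.6 ± 2.15 and 11.0 ± 1.20 FPKM (SD, n = 5 each), resting on 2012 to 2352 and 872 to 1113 reads per retina. The log2 fold change was -1.15 (SE 0.08, 95% interval -1.34 to -0.97, adjusted p = 5.26e-06), and the exact permutation test gave p = 0.00794. *Abcg1* was past the threshold in every alternative that was run, including the averaged pairs, with log2 fold changes of -1.20 to -1.02. It fell together with all 10 rod markers (median log2 fold change -2.17) and the part of these cells in its fall was not tested. Of the 10 Müller glia markers 3 fell and 2 (*Vim* and *Sox9*) rose, with a median log2 fold change of 0.03. Their summed level went from 1150 to 1378 FPKM to 637 to 891 FPKM, a sum led by *Glul*, which fell from 711 ± 94.8 to 165 ± 8.77 FPKM.

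*Abca1* (ENSMUSG00000015243, chr4:53030787-53159895, minus strand, 50 exons) encodes the transporter that hands cholesterol and phospholipid to lipid-poor apolipoproteins. Its values were 11.6, 6.03, 6.39, 6.66 and 9.64 FPKM under NL and 5.65, 10.9, 10.1, 6.50 and 7.11 FPKM after LD. High and low retinas occurred in both groups: NL-1, NL-8, LD-4 and LD-6 lay between 9.64 and 11.6 FPKM and the other 6 between 5.65 and 7.11 FPKM. With means of 8.07 ± 2.46 and 8.03 ± 2.29 FPKM (SD, n = 5 each), the coefficient of variation was 30.5% and 28.5%, and the log2 fold change of -0.0029 (SE 0.23, adjusted p = 0.995) came with a ratio of 0.703 to 1.42 at 95%. A change of *Abca1* the size of that of *Abcg1* lies outside this interval, whereas the changes of *Hmgcs1*, *Idi1* and *Sqle* lie inside it.

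In a comparison within each retina, chosen after the values were seen, the log2 ratio of *Abcg1* to *Abca1* was 1.64 ± 0.42 under NL and 0.49 ± 0.33 after LD (SD, n = 5 each). This is a description, given with no test.

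Sums of cell markers differed between the retinas with high and low *Abca1*. The rod sum was lower with high *Abca1* in both groups, and the other lists differed by group. Among the NL retinas, NL-8 and NL-1 had the highest summed level of the 10 pigment epithelium markers, 163 and 97.2 FPKM, against 52.9 to 73.7 FPKM in the other 3. Among the LD retinas, LD-4 and LD-6 had the highest summed level of the 10 endothelium markers, 101.2 and 102 FPKM, against 62.6 to 66.3 FPKM, whereas their pigment epithelium sums of 103 and 107 FPKM were below the 119 FPKM of LD-8. LD-4 and LD-6 also had the highest LD sums of the Müller glia markers, 862 and 891 FPKM against 637 to 684 FPKM, and of the bipolar and ganglion cell markers, 572 and 577 FPKM against 442 to 502 FPKM. NL-1 and NL-8, in contrast, had the lowest NL sums for bipolar and ganglion cells, 478 and 496 FPKM. For rods, LD-4 and LD-6 stood lowest among LD, at 1565 and 1674 FPKM, while LD-7, LD-1 and LD-8 held 2511 to 3061 FPKM. NL-1 and NL-8 likewise stood lowest among NL, at 11173 and 10023 FPKM, while NL-4, NL-7 and NL-5 held 11454 to 12211 FPKM. FPKM is scaled to library size, and whether less rod RNA raised the other sums was not tested. No gene of these lists was at 0 in all retinas, none of the pigment epithelium markers passed the test and 2 of the endothelium markers rose. LD-4 and LD-6 are also a closest pair, so this is less than 4 separate observations, and the part of these cells in the level of *Abca1* was not tested.

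**Figure D3:**
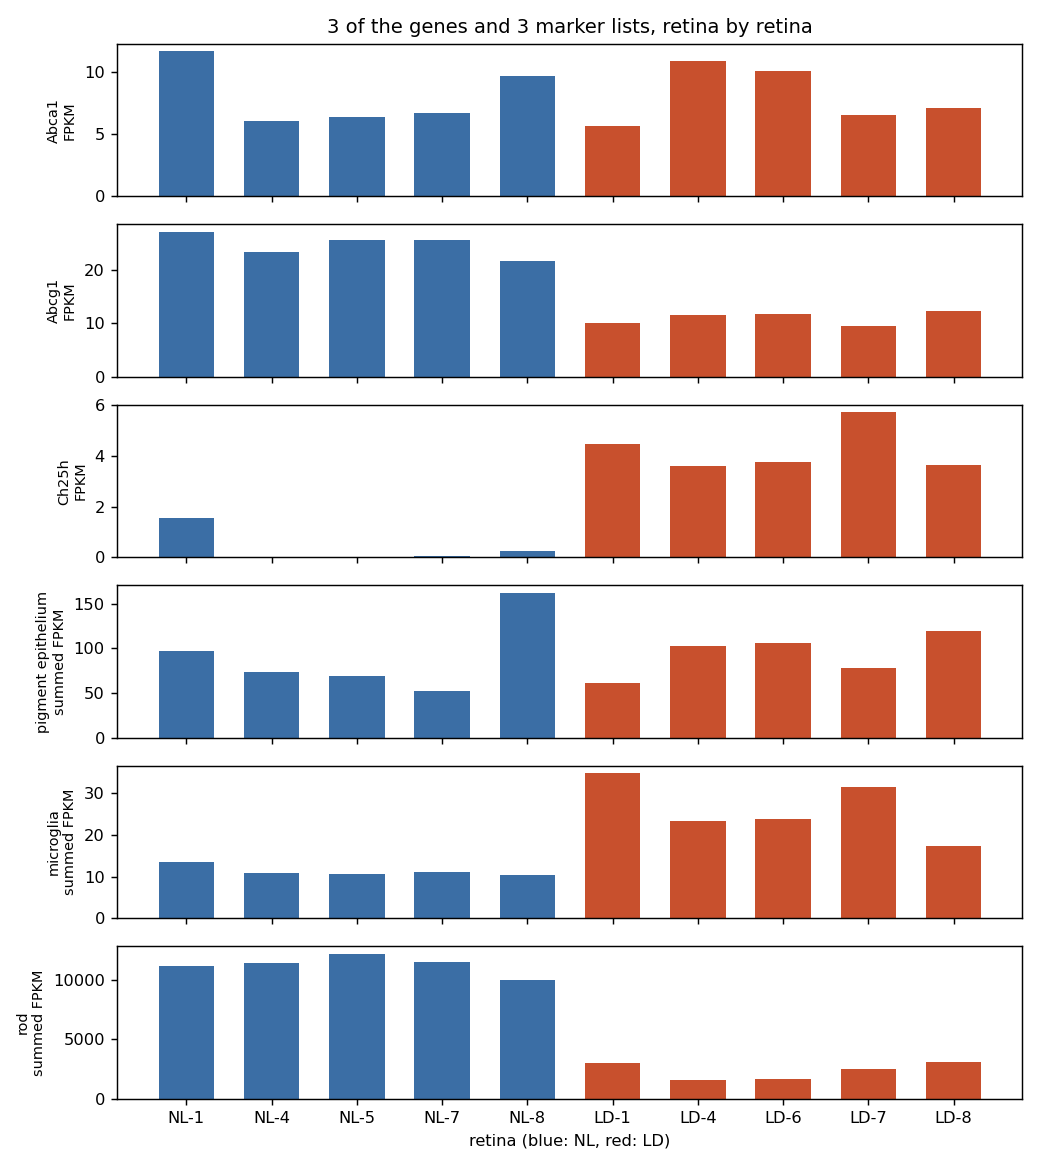
FPKM of *Abca1*, *Abcg1* and *Ch25h* (upper 3 panels) and summed FPKM of markers of pigment epithelium (10 genes), microglia (9) and rods (10) (lower 3 panels) in every NL (blue) and LD (red) retina; each bar is 1 retina and starts at 0. *Abcg1* and the rod markers step down and the microglial markers step up between the groups, whereas *Abca1* is high in NL-1, NL-8, LD-4 and LD-6 (9.64 to 11.6 FPKM).

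Of the 20 genes of LXRs, efflux and esterification, 18 were tested: 4 rose, 5 fell and 9 did not pass, 1 more than 2-fold in each direction, and the median log2 fold change was 0.04. Of all genes tested, 9.3% rose, 7.74% fell and 83.0% did not pass. With a fold change above 2 as well, 4.13% were called higher and 2.37% lower. The receptors themselves did not pass, with a log2 fold change of 0.09 for *Nr1h2* (LXR beta, adjusted p = 0.179) and of -0.26 for *Nr1h3* (LXR alpha, adjusted p = 0.360), the latter at only 1.71 ± 0.325 and 1.43 ± 0.353 FPKM and overlapped by *Gm13783*. *Nr1h2* passed without the factor per retina (log2 fold change 0.22, adjusted p = 0.00324) and with TPM, values scaled to sum to the same total (0.19, adjusted p = 0.00579), 2 settings that raise the median of all genes. Their partner *Rxra* fell from 12.9 ± 0.605 to 8.54 ± 0.926 FPKM (log2 fold change -0.59, adjusted p = 1.79e-04). *Scarb1*, the receptor that exchanges cholesterol with high-density lipoprotein, fell from 18.4 ± 1.85 to 9.86 ± 2.25 FPKM (log2 fold change -0.92, adjusted p = 6.51e-04). The transporters *Abcg4* and *Abca7* were lower as well, with log2 fold changes of -0.56 (adjusted p = 0.00565) and -0.31 (adjusted p = 2.96e-04). *Apoe*, the main apolipoprotein of glia and an acceptor of exported cholesterol, was among the higher genes of the list at 337 ± 27.1 and 338 ± 53.4 FPKM (log2 fold change -0.01, adjusted p = 0.980).

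The 4 genes of this list that rose make or hydrolyse cholesterol esters. *Soat1*, the acyltransferase of most tissues, rose from 3.48 ± 0.196 to 5.02 ± 0.468 FPKM (log2 fold change 0.51, adjusted p = 5.63e-04), and *Nceh1*, which hydrolyses the esters again, had a log2 fold change of 0.31 (adjusted p = 0.00195). *Lcat*, the secreted acyltransferase, went from 1.67 ± 0.287 to 2.78 ± 0.557 FPKM (log2 fold change 0.69, adjusted p = 0.00745). *Soat2* had a log2 fold change of 1.02 (adjusted p = 0.00741) but stood at only 0.164 ± 0.0637 and 0.429 ± 0.101 FPKM, and it missed the threshold in each of the 10 fits that left out a retina (adjusted p of up to 0.0208). *Lcat* missed it in 8 of these fits, all but those without NL-7 or LD-4, with adjusted p-values of up to 0.0195.

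**Figure D4:**
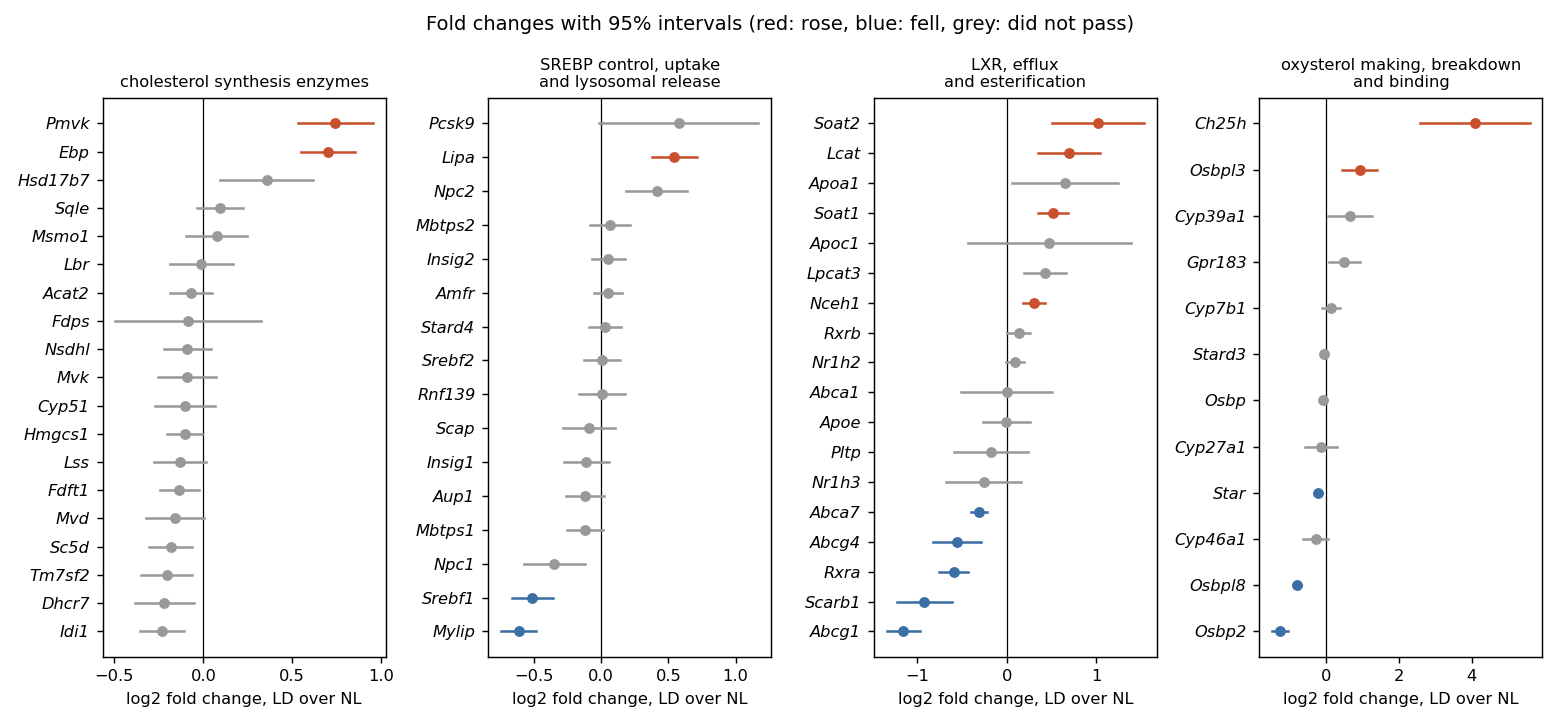
Log2 fold change, LD over NL, with its 95% interval from limma, for the tested genes of the 4 lists of cholesterol genes (each panel has its own horizontal scale); red genes rose, blue genes fell and grey genes did not pass. The synthesis and control genes cluster around 0, the efflux list runs from *Abcg1* at -1.15 to *Soat2* at 1.02, and *Ch25h* stands apart at 4.09.

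*Ch25h* (ENSMUSG00000050370, chr19:34473786-34475135, minus strand, a gene with 1 exon) was the member that changed most. Its values were 1.56, 0, 0, 0.0698 and 0.258 FPKM under NL and 4.47, 3.62, 3.77, 5.72 and 3.63 FPKM after LD. These rest on 45, 0, 0, 2 and 9 reads in the NL retinas and on 147, 99, 114, 176 and 109 reads in the LD retinas. All LD values exceeded all NL values, and NL-1 alone held most of the NL reads. The means were 0.377 ± 0.669 and 4.24 ± 0.899 FPKM (SD, n = 5 each).

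The log2 fold change of *Ch25h* was 4.09 (SE 0.68, 95% interval 2.58 to 5.59, adjusted p = 0.00123), and the exact permutation test gave p = 0.00794. *Ch25h* met the filter on low values through the LD retinas alone. Its p-values are therefore not read as support for the rise, which is described by the levels and reads above. With the NL retinas so close to 0, this size depends on the pseudocount: it was 2.02 with a pseudocount of 1 and 5.70 with 0.01, and 4.77 without NL-1. The call was lost when the closest pairs were averaged (log2 fold change 3.81, adjusted p = 0.0250, with 4 NL and 3 LD samples; range over all alternatives 2.13e-05 to 0.0250). An opposite-strand transcript that overlaps the gene, *Gm26902*, was at 0.0477 and 0.105 FPKM.

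Summed markers of immune cells were higher after LD as well, but did not follow *Ch25h* in every retina. Of 9 microglia and macrophage markers 6 rose (*Cd68*, *Itgam*, *Trem2*, *Aif1*, *Cx3cr1* and *Ptprc*). *Ptprc* met the filter on low values through its LD retinas alone. *Csf1r* (log2 fold change 0.74, adjusted p = 0.0412), *Tmem119* (0.22, 0.528) and *P2ry12* (-0.74, 0.122) did not pass. The mean of *P2ry12* was lower after LD, at 1.32 ± 0.747 against 2.03 ± 0.278 FPKM. The summed level of the 9 went from 10.5 to 13.6 FPKM under NL to 17.4 to 34.8 FPKM after LD, with none at 0 in all retinas. *Cd68* alone went from a mean of 1.78 to 9.90 FPKM. LD-7 and LD-1, the 2 LD retinas with the most *Ch25h*, had the highest sums, 31.6 and 34.8 FPKM. They are a closest pair, so this is less than 2 separate observations. NL-1 had the highest NL sum, 13.6 FPKM. LD-8 had the lowest LD sum, 17.4 FPKM, while its *Ch25h*, at 3.63 FPKM, was no lower than that of LD-4. The 5 blood monocyte markers summed to 0.0359 to 0.0624 FPKM under NL and to 0.384 to 0.672 FPKM after LD, *Ly6c2* being at 0 in all 5 NL retinas. Among the LD retinas this sum was highest in LD-8 and lowest in LD-1, unlike the order of *Ch25h*. Only *Plac8* of these 5 passed the filter on low values, and it did so through the LD retinas alone, so its test is not read here. The part of these cells in the rise of *Ch25h* was not tested.

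None of the other tested enzymes that make or break down oxysterols passed the test. Of the 14 genes of this list 12 were tested, 2 rose (*Ch25h* and *Osbpl3*), 3 fell and 7 (58.3%) did not pass. Of all genes tested 9.3% rose, 7.74% fell and 83.0% did not pass. The median log2 fold change of the list was -0.07. The p-value of *Ch25h* is not read as support for its rise. *Cyp7b1*, whose product breaks down the oxysterol that CH25H makes, had a log2 fold change of 0.12 (adjusted p = 0.476). The other cholesterol hydroxylases did not pass, *Cyp27a1* with -0.16 (adjusted p = 0.602) and *Cyp46a1*, the neuronal enzyme, with -0.29 (adjusted p = 0.198). *Gpr183*, the receptor on immune cells for an oxysterol derived from the CH25H product, was at 0.271 ± 0.0760 and 0.418 ± 0.0795 FPKM (log2 fold change 0.49, adjusted p = 0.0878).

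Among the sterol-binding proteins, *Osbp2* fell most, from 99.9 ± 6.33 to 41.5 ± 6.29 FPKM (log2 fold change -1.28, adjusted p = 6.77e-06), and *Osbpl8* fell from 22.8 ± 1.28 to 12.9 ± 0.672 FPKM (log2 fold change -0.82). *Osbpl3* was higher, at 3.22 ± 1.13 against 1.60 ± 0.246 FPKM (log2 fold change 0.91, adjusted p = 0.00980). It missed the threshold in 9 of the 10 fits that left out a retina, all but that without LD-1, with adjusted p-values of up to 0.0259. *Star*, which carries cholesterol into mitochondria, was at 4.39 ± 0.153 and 3.71 ± 0.111 FPKM, a small difference without overlap (log2 fold change -0.24, adjusted p = 0.00667) that missed the threshold in each of the 10 fits that left out a retina (adjusted p = 0.0103 to 0.0201). Counted over the 4 lists together, 65 of 69 genes were tested, 9 rose and 10 fell, with 2 in each direction past 2-fold (*Ch25h* and *Soat2* higher, *Abcg1* and *Osbp2* lower). Of all genes tested 9.3% rose and 7.74% fell, and 4.13% and 2.37% were also past 2-fold. The counts of higher genes include *Ch25h*, whose p-value is not read as support for its rise. With the closest pairs averaged, 1964 of all genes tested were past the adjusted p, against 4178 with the 10 retinas. Of the 19 list genes that rose or fell, 11 still passed. The 8 that did not were *Ch25h*, *Soat1* (adjusted p = 0.0108), *Nceh1* (0.0138), *Lcat* (0.0160), *Soat2* (0.0410), *Abcg4* (0.0181), *Osbpl3* (0.0330) and *Star* (0.0567), which includes all 4 genes that rose in the list of LXRs, efflux and esterification.

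Within the LD group the members varied along the closest pairs. LD-1 and LD-7 had the highest *Hmgcs1*, *Sqle* and *Ch25h* and the lowest *Srebf2* and *Insig1* of the LD retinas, and LD-4 and LD-6 the highest *Abca1* and the lowest *Idi1*. After subtracting each group's mean, *Hmgcs1* and *Sqle* went together over the 10 retinas (Pearson r = 0.78 for log2 values). *Sqle* and *Abcg1* went in opposite directions (r = -0.86). For *Abca1* and *Ch25h* r was 0.61, set mostly by the NL retinas, and it does not describe the LD group. There, LD-4 and LD-6, with the highest *Abca1*, had 3.62 and 3.77 FPKM of *Ch25h*. LD-1 and LD-7, with the lowest *Abca1*, had the most *Ch25h*, 4.47 and 5.72 FPKM. The genes most like *Hmgcs1* by r over the 10 retinas, of 12427 protein-coding genes averaging 1 FPKM or more, were *Elp2* (r = 0.98), *Ascc1* (0.95), *B3galt4* (0.93), *Gstz1* (0.93) and *Tmem132b* (0.93). Those most like *Ch25h* were *1500015O10Rik* (r = 0.97), *Bst2* (0.96), *Pros1* (0.95), *Med25* (0.94) and *C3* (0.92). The likeness to *Ch25h* is likewise set mostly by the NL retinas, with 0 to 45 reads each, and does not describe the LD group. These are descriptions over 10 retinas that share libraries and, in the closest pairs, nearly their values.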

How the data were processed

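The authors deposited FPKM values of 54532 genes in 10 retinas with gene positions and lengths; a company normalized the data. The submitters' processing notes name TopHat2 2.0.9, Bowtie2 2.0.6 and mm8, but the positions are those of GRCm38 (53499 identifiers have the same position in GENCODE M21). The counting program, the use of strand and the RNA-seq test are not given in the sources used here. Since 100% of the values, times gene length, were whole numbers of 1 constant per retina (tolerance 0.01), reads could be recovered: 21343389 to 26832535 per NL and 18965090 to 23378090 per LD retina. The library size the authors divided by was this sum times a factor of 0.951 to 0.968 (NL) or 1.041 to 1.069 (LD). Genes reaching 0.1 FPKM in 5 or more retinas were tested on log2(FPKM + 0.1) with limma 3.58.1 (R 4.3.3), with an intensity trend and Benjamini-Hochberg adjustment over 24508 genes, at the paper's thresholds. A fold change on this scale understates that of low genes. Exact tests and plots used Python 3.11.15, scipy 1.17.1, numpy 2.4.6, pandas 2.3.3 and matplotlib 3.10.9. The fit was first tested on simulated data.

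The members, gene lists and tests were chosen with earlier results of these data known. Named are the members, the 3 largest increases and 3 largest decreases with an adjusted p under 0.01 of each list, 9 genes of general interest to the pathway, and the 5 genes most like *Hmgcs1* and *Ch25h*. *Abcg4*, *Abca7*, *Nceh1* and *Fdps* were added after their values were seen. The 14 alternatives changed the pseudocount, filter, scaling, trend, test, threshold, replicate block and retinas included, and the comparison within each retina was added later. Some genes of the lists are not reported here. The mouse of each retina is not given in the labels.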

Additional observations from a re-analysis of the deposited data

Results flagged for a closer look

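In 60 groups of 5 values (the NL and LD values of the named genes), 4 held a retina far from the other 4 by Dixon's test at 95%, which chance alone gives in about 1 in 20 groups, or 3 of 60. *Ch25h* was at 1.56 FPKM in NL-1 and at 0 to 0.258 FPKM in the other NL retinas. *Cyp7b1* was at 3.10 FPKM in LD-4, while the rest of the LD group, with its close partner LD-6, held 2.27 to 2.36 FPKM. For *Ebp*, LD-8 had 12.6 FPKM and the rest of its group 9.88 to 10.7 FPKM. LD-8 also had the outlying value of *Mylip*, 14.2 FPKM, where the rest had 11.8 to 12.3 FPKM.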

How the results depend on the processing

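Of the members, *Abcg1* kept its direction and its side of the threshold in all 23 settings, and *Ch25h* in 21. *Ch25h* met the filter on low values through its LD retinas alone, so its count describes the settings and is not read as support for its rise. The call of *Ch25h* was the one lost among the members: with the closest pairs averaged its log2 fold change was 3.81 (adjusted p = 0.0250), and with the replicate block on the 4 shared replicate numbers it was 3.79 (adjusted p = 0.0197). These left 1 member past the adjusted p and 1 past 2-fold as well. Of the genes of the 4 lists, 11 were then past the adjusted p and 2 past 2-fold with averaged pairs, and 7 and 2 with the replicate block, against 14 and 3 for the same 8 retinas with no replicate block. Over all genes, 808 were called with the block, 1182 without it, 1076 with averaged pairs and 816 with a pseudocount of 1, against 1595. Past the adjusted p, whatever the fold change, were 1322 with the block, 2372 without it and 1964 with averaged pairs, against 4178. The correlation of same-numbered retinas was 0.0575, 0.0656, -0.0121 and -0.0893, so no pairing by number was seen, although a weak one is not excluded.
*Idi1* stayed outside the threshold in 18 of the 23 settings. It passed without LD-1 (-0.26), with a pseudocount of 0.01 (-0.24) and with at least 1 FPKM in 5 retinas (-0.23). It also passed with quantile normalization (-0.27) and an adjusted p under 0.05 (-0.23). It stood at -0.10 (adjusted p = 0.164) without the factor per retina and at -0.13 (0.129) with TPM. *Star* missed the threshold in these same 2 settings (-0.11, adjusted p = 0.161, and -0.14, 0.0989), and *Nr1h2* passed in both (0.22 and 0.19). Without the factor per retina the median of all genes moved from -0.01 to 0.11, and *Hmgcs1* stood at 0.027, *Insig1* at 0.023, *Abca1* at 0.13, *Apoe* at 0.13 and *Cyp51* at 0.030, the sign opposite to that reported. With TPM the signs of *Abca1* (0.10), *Apoe* (0.10) and *Cyp51* (7.47e-04) also turned, as did that of *Apoe* with quantile normalization (0.31) and those of *Abca1* (0.0063) and *Apoe* (0.013) with limma-voom. In the fits without 1 of the retinas, *Abca1* had log2 fold changes of -0.12 to 0.14, *Srebf2* of -0.023 to 0.041, *Apoe* of -0.061 to 0.093 and *Idi1* of -0.26 to -0.21, and 2 to 3 members and 14 to 17 list genes passed. Apart from the construction of each setting, the cause of these changes was not tested. Counting limits *Ch25h*, with 0 to 45 reads per NL retina.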
